A study of Homo sapiens with 9 samples.

Results

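TRAIL, the death ligand encoded by TNFSF10, was studied with its receptors and the genes of the complex that the receptors assemble. The 10 genes were chosen by symbol: the ligand TNFSF10, the death receptors TNFRSF10A and TNFRSF10B, the decoy receptors TNFRSF10C and TNFRSF10D, the related death receptor FAS, the adaptor FADD, the caspases CASP8 and CASP10, and the caspase inhibitor CFLAR. All 10 were found, each on 1 of the 27548 rows of the expression table. The cells were MDA-MB-231, an established human line of triple-negative breast cancer, and each of 3 groups had 3 RNA-seq libraries. In CTL+siCTL (libraries S1 to S3) control cells received a negative control siRNA. In TLX+siCTL (S4 to S6) cells that overexpressed the nuclear receptor TLX, the product of NR2E1, received the same negative control, and in TLX+siTLX (S7 to S9) they received a TLX siRNA. All 9 were transfected for 48 h, and no group of control cells received the TLX siRNA, so an effect of that siRNA outside TLX cannot be told apart from the loss of TLX. The sources used here state neither how TLX was overexpressed nor whether the line was 1 clone or a pool. The titles of the control samples contain an unexplained PC3, so other differences between the control and TLX cells cannot be told apart from TLX. No label ties the replicates to separate cultures, so p-values cover only the spread among the samples at hand, and that spread could be technical.

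TRAIL is a membrane protein of the TNF superfamily that can kill tumour cells through TNFRSF10A (also called DR4) and TNFRSF10B (DR5). Bound receptors recruit FADD, which gathers CASP8 and CASP10 so that they activate each other and then caspases further down, while CFLAR, the gene of c-FLIP, enters the same complex and limits that step. TNFRSF10C and TNFRSF10D bind TRAIL without passing on a full death signal, and many triple-negative lines with mesenchymal features are known as TRAIL-sensitive.

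The targeted gene, NR2E1, was at -4.59, -4.28 and -4.50 log2 CPM (log2 of counts scaled to library size) in the CTL+siCTL libraries, at 0.28, -0.84 and 0.23 in TLX+siCTL and at -2.61, -3.40 and -1.77 in TLX+siTLX. The 3 groups did not overlap, and the order matched the labels. Even the overexpressing libraries held few NR2E1 reads, about 42.0 to 109 per library as rebuilt from the log values. Effective library sizes, rebuilt in the same way, were 73.8 to 91.8 M reads. Markers of mesenchymal breast lines (6 genes, among them VIM, CD44, ZEB1, AXL and CAV1) were all above 1 log2 CPM. Their summed level was 3468 to 3602 CPM in CTL+siCTL, 3579 to 3643 in TLX+siCTL and 4780 to 5041 in TLX+siTLX, so it was highest where TNFSF10 was highest, and its part in the results was not tested. Of the luminal list, ERBB2, GATA3 and SPDEF passed 1 log2 CPM, while ESR1, PGR and FOXA1 averaged -2.43, -1.31 and -3.13. Of 8 prostate markers 2 passed 1 log2 CPM (SLC45A3 among them), with KLK3 at -4.52 and HOXB13 at -5.20, and the list summed to 39.3 to 41.7, 39.7 to 42.2 and 41.9 to 44.4 CPM in the 3 groups. Immune cells, which also make TRAIL, were hardly seen: 0 of 3 measured markers (PTPRC, CD3E, CD14) passed 1 log2 CPM, and they summed to 0.526 to 1.34 CPM in any library. Of 4 fibroblast markers only COL1A1 passed, and the list summed to 8.96 to 9.47, 3.84 to 5.19 and 7.40 to 10.1 CPM. In bulk RNA, fewer cells of a type and less RNA per cell cannot be told apart.

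The ligand and its receptors moved in different directions across the groups. In the TLX line, 4 of the 10 genes were lower than in control cells (TNFRSF10A, TNFRSF10B, TNFRSF10D and CASP10), CFLAR was higher, and TNFSF10 did not pass the test. After the TLX siRNA, TNFSF10 rose 4.03-fold, FAS 1.72-fold and CASP8 1.27-fold, while TNFRSF10B and CFLAR fell. Of the 10 genes, 1 rose and 4 fell in TLX+siCTL against CTL+siCTL, where limma called 30.1% of all rows and 56.6% of the 12564 rows with a mean of at least 1 log2 CPM (15.0% and 29.3% for rises, 15.1% and 27.4% for falls). In TLX+siTLX against TLX+siCTL 3 rose and 2 fell, beside 23.7% of all rows and 45.8% of the expressed rows (12.7% and 23.8% for rises, 10.9% and 22.0% for falls). In TLX+siTLX against CTL+siCTL 3 rose and 4 fell, beside 34.6% and 63.6% (17.7% and 32.4% for rises, 17.0% and 31.2% for falls). Calls were adjusted p-values under 0.05 over all rows. The members' share was near that of expressed rows in each comparison, so the counts do not set these genes apart from other expressed genes. The groups did not overlap in 5, 7 and 7 of the 10 genes, beside 71.6%, 58.3% and 71.1% of the expressed rows. The median log2 fold change of the 10 genes was -0.17, 0.06 and -0.06, beside 0.01, -0.00 and 0.00 over the expressed rows. The last comparison shares its libraries with the other two and is not separate evidence. The authors' deposited table gave the same call for 10 of 10 members in each comparison.

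**Figure D1:**
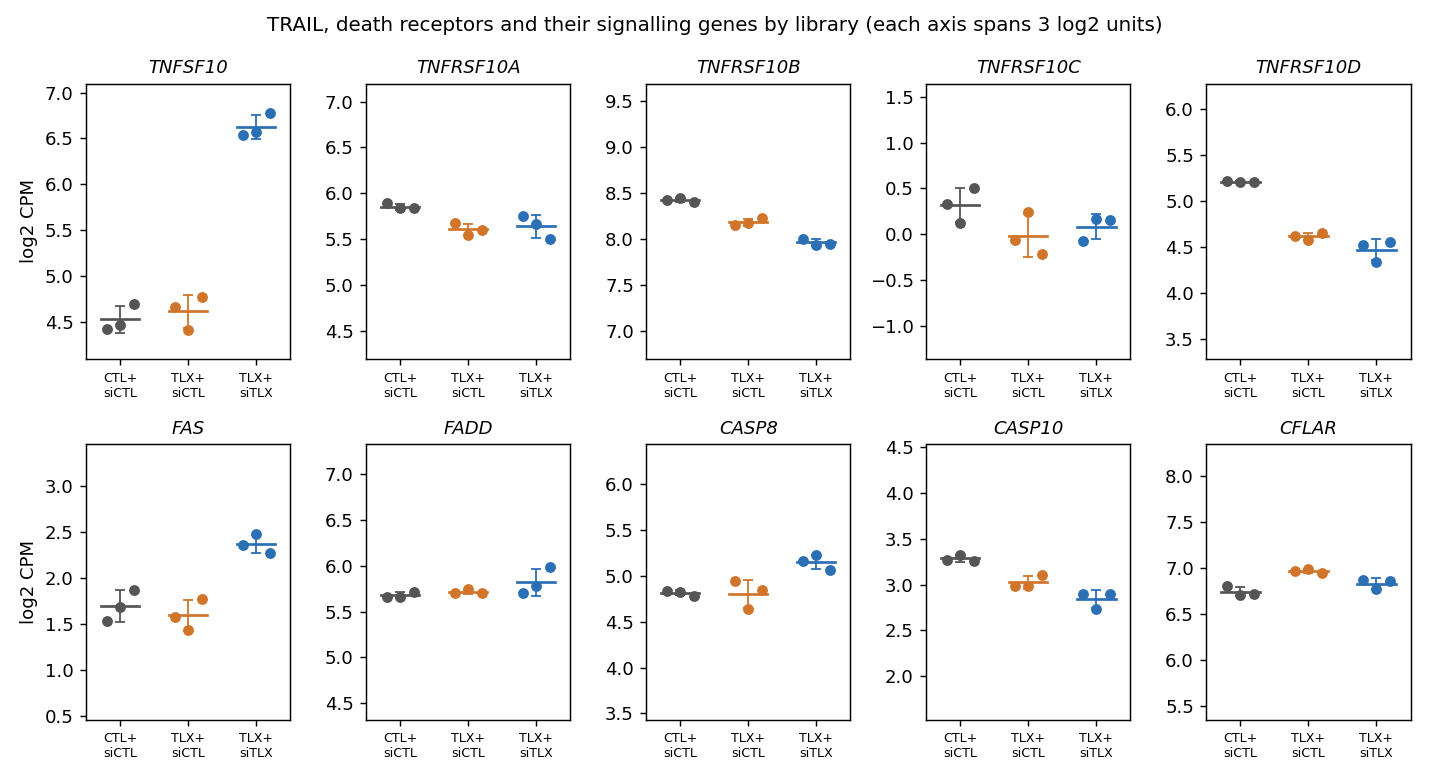
Level of each of the 10 genes in log2 CPM (vertical axis) in the 3 groups (horizontal axis), with 1 point per library, the mean as a bar and the SD as whiskers (n = 3). TNFSF10 is at 6.54 to 6.78 in TLX+siTLX and at or under 4.77 in the other 6 libraries, TNFRSF10B falls at each step, and TNFRSF10D falls from about 5.21 in control cells to 4.57 to 4.65 in TLX+siCTL.

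The ligand gene TNFSF10 lies on chr3:172505508-172523507, minus strand (GRCh38, GENCODE 29). Its level was 4.43, 4.47 and 4.70 log2 CPM in CTL+siCTL, then 4.67, 4.42 and 4.77 in TLX+siCTL, and lastly 6.54, 6.57 and 6.78 in TLX+siTLX. The first pair of groups overlapped, and every TLX+siTLX library was above all the others. Overexpression of TLX gave a log2 fold change of 0.09 ± 0.11 (SE; limma adjusted p = 0.626), with a 95% interval from 0.893- to 1.26-fold. The siRNA step gave 2.01 ± 0.11, a 4.03-fold rise with an interval from 3.39 to 4.78 (limma adjusted p = 8.66e-06), and the rise over control cells was 4.27-fold with an interval from 3.60 to 5.08 (limma adjusted p = 1.38e-06). Both rises kept their call in all 17 alternative settings. Among the 2990 expressed rows that rose at the siRNA step TNFSF10 ranked 27th by size, and 28 of them rose at least 4-fold. Against control cells it ranked 163rd of 4071 rises.

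RefSeq promoters (GRCh38.p14, the bases before each start) were held for 5 of the 10 members, with 1 start each for TNFSF10 and FADD, 3 each for FAS and CASP8 and 4 for CFLAR, and all 12 were searched. Stretches of the 3 genes that rose at the siRNA step are shown to place core elements found in them. Each is cut to the bases outside the gene's own GENCODE span, except FAS, where 30 bases round a match are given. Capitals mark the matches described below, and all sequences run 5′ to 3′ on the gene's strand.
TNFSF10, chr3:172523508-172523680, minus strand: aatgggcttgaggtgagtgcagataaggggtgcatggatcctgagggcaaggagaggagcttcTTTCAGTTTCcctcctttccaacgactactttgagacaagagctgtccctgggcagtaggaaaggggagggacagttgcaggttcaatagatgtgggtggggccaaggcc
CASP8, chr2:201233213-201233442, plus strand: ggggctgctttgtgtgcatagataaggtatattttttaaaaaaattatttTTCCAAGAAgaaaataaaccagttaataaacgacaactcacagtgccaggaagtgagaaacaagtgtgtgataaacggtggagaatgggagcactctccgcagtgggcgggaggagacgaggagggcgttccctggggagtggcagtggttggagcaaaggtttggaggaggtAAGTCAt
FAS, chr10:88990706-88990735, plus strand: gcggtttacgagTGACTTggctggagcctc
Both strands were searched for GAAANNGAAA, the core of an interferon-stimulated response element, TTCNNNGAA, the core bound by STAT factors, and AAGTCA, the core bound by TLX. The TNFSF10 promoter held TTTCAGTTTC, a reverse-strand GAAANNGAAA, at -187 to -178 from its RefSeq start, and no AAGTCA or TTCNNNGAA in its 250 bases. The most upstream CASP8 start in the table had TTCCAAGAA at -200 to -192 and AAGTCA at -27 to -22, and another had AAGTCA at -214 to -209. The most upstream FAS start in the table had TGACTT, a reverse-strand AAGTCA, at -80 to -75. This match lies inside the GENCODE span of FAS, which starts at 88990582, and is at -196 to -191 from a second start. CFLAR, which fell at the siRNA step, had AAGTCA at -73 to -68 from 1 of its 4 starts, and FADD had none of these 3 motifs, so the AAGTCA matches are not limited to genes that rose. Among 35116 promoters of that length, 3.02% held GAAANNGAAA, 6.57% TTCNNNGAA and 10.9% AAGTCA. The SP1 box GGGCGG, also searched, was in at least 1 start of each of these members other than TNFSF10 and in 42.6% of the 35116 promoters. These shares are per promoter, and a gene with several starts has more chances of a match. A match describes the letters only.

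The 4 TRAIL receptor genes stand side by side on chromosome 8, with TNFRSF10B at 23020133 to 23069179 (minus), TNFRSF10C at 23102590 to 23117437 (plus), TNFRSF10D at 23135588 to 23164030 (minus) and TNFRSF10A at 23190452 to 23225126 (minus). TNFRSF10B, the death receptor DR5, had 8.42, 8.45 and 8.40 log2 CPM in CTL+siCTL, then 8.15, 8.17 and 8.22 in TLX+siCTL, and lastly 8.00, 7.94 and 7.95 in TLX+siTLX. The 3 groups did not overlap, and the level fell at each step. Its log2 fold change was -0.24 ± 0.03 with TLX (limma adjusted p = 0.000674), -0.22 ± 0.03 after the siRNA (limma adjusted p = 0.0019) and -0.46 ± 0.03 over both (limma adjusted p = 1.05e-05). With the library medians of all rows set equal, which moves every gene of the first comparison by 0.12, the first fall became -0.13 with a limma adjusted p of 0.073. Its span overlaps RHOBTB2 on the opposite strand.

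TNFRSF10A, the death receptor DR4, was lower in the TLX line, with no call at the siRNA step. It had 5.89, 5.83 and 5.84 log2 CPM in CTL+siCTL, then 5.67, 5.55 and 5.60 in TLX+siCTL, and lastly 5.75, 5.67 and 5.50 in TLX+siTLX. All 6 TLX-line libraries were below the 3 control libraries, and the TLX+siCTL and TLX+siTLX groups overlapped. The log2 fold change was -0.25 ± 0.06 with TLX (limma adjusted p = 0.0181) and -0.21 ± 0.06 in TLX+siTLX against control cells (limma adjusted p = 0.0295), with 0.03 between them (limma adjusted p = 0.805). Both falls were near the threshold: the first was lost with all-row medians set equal (limma adjusted p = 0.21), without the intensity trend (0.0508) and without S1, S2, S3, S5 or S6 (0.0532 to 0.078). The second was lost with only its 2 groups in the fit (limma adjusted p = 0.0837), without the trend (0.072) and without S1, S2, S3, S6, S8 or S9 (0.0519 to 0.11).

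TNFRSF10D, a decoy receptor with a truncated death domain, showed the largest fall of the 10 genes in the TLX line. Its level was 5.22, 5.20 and 5.21 log2 CPM in CTL+siCTL, then 4.62, 4.57 and 4.65 in TLX+siCTL, and lastly 4.51, 4.34 and 4.55 in TLX+siTLX. The 3 groups did not overlap, with the control libraries closest together. The log2 fold change was -0.60 ± 0.06 with TLX (limma adjusted p = 6.43e-05) and -0.74 ± 0.06 in TLX+siTLX against control cells (limma adjusted p = 1.22e-05). Between the TLX groups it was -0.15 ± 0.06 (limma adjusted p = 0.108), a value that passed the test after quantile normalization (0.0384) and with all-row medians set equal (0.00878).

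TNFRSF10C, a decoy receptor anchored by a lipid, was the lowest of the 10 genes. It had 0.33, 0.13 and 0.50 log2 CPM in CTL+siCTL, then -0.06, 0.24 and -0.22 in TLX+siCTL, and lastly -0.08, 0.17 and 0.15 in TLX+siTLX. All 3 groups overlapped, and the differences of -0.33 ± 0.19, 0.10 and -0.24 had limma adjusted p-values of 0.255, 0.798 and 0.42. About 66.3 to 103 reads were rebuilt per library, and 38.3% of its 31-base words also occur in other annotated transcripts, most in AC107959.4, so its value is uncertain.

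FAS, the receptor of FAS ligand, signals through the same adaptor and was low in all groups. It had 1.53, 1.68 and 1.87 log2 CPM in CTL+siCTL, then 1.58, 1.43 and 1.77 in TLX+siCTL, and lastly 2.36, 2.48 and 2.27 in TLX+siTLX. The TLX+siTLX libraries were above the other 6, which overlapped. Its log2 fold change at the siRNA step was 0.78 ± 0.13, a 1.72-fold rise (limma adjusted p = 0.00219), against -0.10 ± 0.13 with TLX alone (limma adjusted p = 0.62) and 0.68 ± 0.13 over control cells (limma adjusted p = 0.00261). Its rank among the 2990 rises was 642nd, so its size was less unusual than that of TNFSF10. The gene, on chr10:88990582-89015785, plus strand, overlaps ACTA2, smooth muscle actin, on the opposite strand. ACTA2 had a log2 fold change of -0.36 with TLX (limma adjusted p = 0.196), rose by 1.05 on the log2 scale at the siRNA step (limma adjusted p = 0.00323) and by 0.69 over control cells (limma adjusted p = 0.0171, and 0.0505 without S8). The library kit kept the strand, but the sources used here do not state whether the authors' counting used it, so reads of the 2 genes may not be told apart.

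**Figure D2:**
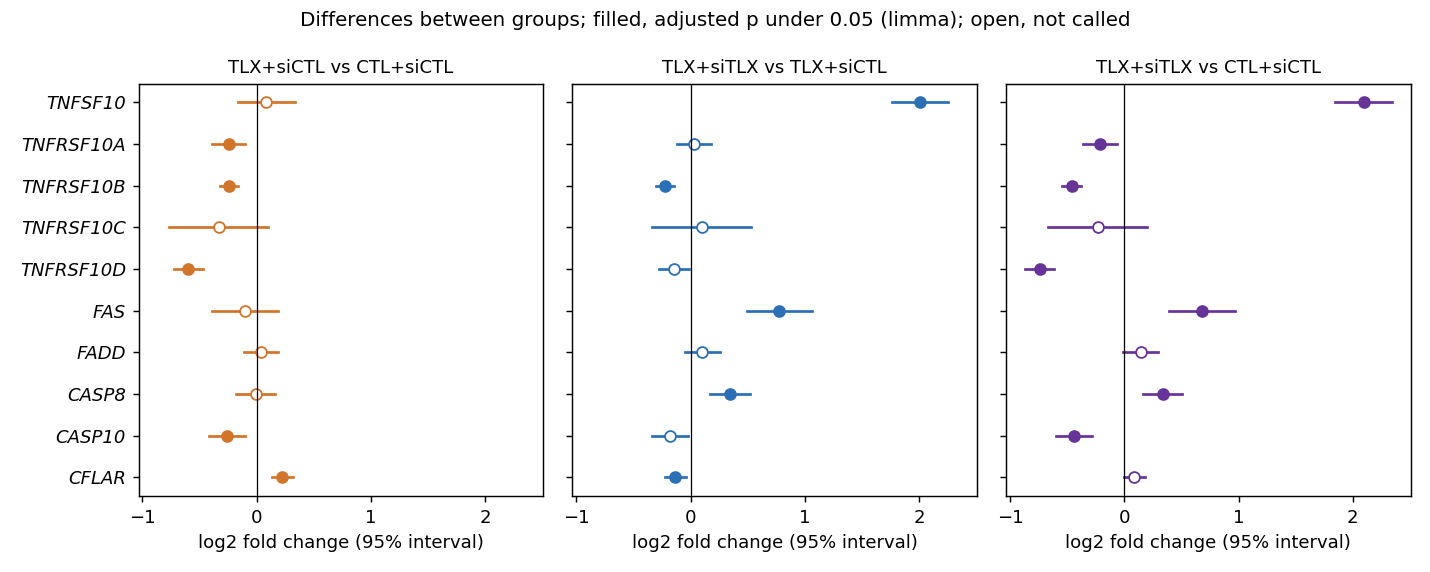
Log2 fold change (horizontal axis) of each gene (vertical axis) in the 3 comparisons, with 95% intervals from limma, filled points for an adjusted p under 0.05 and open points for the rest. TNFSF10 stands at 2.01 in the siRNA step and 2.10 over control cells, while the called receptor falls (filled points) lie between -0.21 and -0.74.

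FADD, the adaptor that links receptors to caspases, passed no test. It had 5.66, 5.66 and 5.72 log2 CPM in CTL+siCTL, then 5.71, 5.74 and 5.70 in TLX+siCTL, and lastly 5.70, 5.78 and 5.99 in TLX+siTLX. The groups overlapped, with S9 the highest. The log2 differences of 0.04, 0.10 and 0.14 had limma adjusted p-values of 0.74, 0.339 and 0.141, and without S7 the last became 0.20 (limma adjusted p = 0.0387).

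CFLAR, CASP10 and CASP8 are neighbours on the plus strand of chromosome 2, at 201116104 to 201176687, 201182881 to 201229406 and 201233443 to 201287711. CASP8, the initiator caspase of the pathway, had 4.83, 4.83 and 4.78 log2 CPM in CTL+siCTL, then 4.94, 4.64 and 4.84 in TLX+siCTL, and lastly 5.16, 5.22 and 5.06 in TLX+siTLX. The TLX+siTLX libraries were above the other 6. Its log2 fold change was 0.35 ± 0.08 at the siRNA step (1.27-fold, limma adjusted p = 0.0102) and 0.34 ± 0.08 over control cells (limma adjusted p = 0.00745), against -0.01 ± 0.08 with TLX alone (limma adjusted p = 0.987). The siRNA-step call was lost with all-row medians set equal (limma adjusted p = 0.0893), with only the 2 groups in the fit (0.0631) and without S8 (0.0506).

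CASP10, the other initiator caspase, was lower in each successive group. It had 3.27, 3.32 and 3.26 log2 CPM in CTL+siCTL, then 2.98, 2.98 and 3.10 in TLX+siCTL, and lastly 2.90, 2.73 and 2.90 in TLX+siTLX. The 3 groups did not overlap. The log2 fold change was -0.26 ± 0.07 with TLX (limma adjusted p = 0.0195), -0.18 ± 0.07 after the siRNA (limma adjusted p = 0.103) and -0.44 ± 0.07 over both (limma adjusted p = 0.000955). The fall with TLX was lost after quantile normalization (limma adjusted p = 0.0608), with all-row medians set equal (0.235) and without S2, S4 or S5 (0.0544 to 0.0572). Those 2 scalings also called the siRNA-step difference (limma adjusted p = 0.0154 and 0.0152).

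CFLAR, the inhibitor, was higher with TLX and lower again after the siRNA. It had 6.80, 6.71 and 6.72 log2 CPM in CTL+siCTL, then 6.97, 6.99 and 6.94 in TLX+siCTL, and lastly 6.87, 6.77 and 6.86 in TLX+siTLX. TLX+siCTL was above both other groups, which overlapped each other. The log2 fold change was 0.22 ± 0.04 with TLX (limma adjusted p = 0.00269), -0.14 ± 0.04 after the siRNA (limma adjusted p = 0.0407) and 0.09 ± 0.04 over control cells (limma adjusted p = 0.138). The second call was lost with only its 2 groups in the fit (limma adjusted p = 0.0542), without the trend (0.14) and without S2, S3, S4, S5, S6 or S8 (0.051 to 0.109), while without S8 the difference from control cells passed (0.0442). Of its 31-base words 11.8% occur in other transcripts, most in AC007283.1.

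Levels between genes were compared per length, as CPM per kilobase of the longest coding transcript. In CTL+siCTL the order was TNFRSF10B (82.9 CPM per kilobase), FADD (27.8), TNFRSF10A (21.3), TNFSF10 (11.9), TNFRSF10D (10.5), CASP8 (9.60), CFLAR (7.31), CASP10 (1.64), FAS (1.27) and TNFRSF10C (0.73), and no neighbours overlapped in their libraries. DR5 was thus the most abundant of the 5 receptor transcripts. In TLX+siTLX TNFSF10 rose to 50.8 ± 4.64 CPM per kilobase (SD, n = 3), second to TNFRSF10B at 60.1 ± 1.40. With the union of exons as length, TNFSF10 was at 28.6 there, behind TNFRSF10B and FADD and overlapping FADD, while in control cells TNFRSF10D stood above TNFSF10 (10.5 against 6.69) and CFLAR above CASP8 (4.76 against 3.88), and FAS and TNFRSF10C overlapped. Those parts of the order depend on the length used. CFLAR was divided by 14672 bases, the longest of its 12 coding transcripts, or by a union of 22529, against 2930 and 7243 for CASP8. No shorter CFLAR transcript was tried, so its rank and its ratio to CASP8 may be understated with both lengths.

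Ratios within a library do not depend on its scaling. TNFSF10 transcript per transcript of both death receptors was 0.105, 0.108 and 0.130 in CTL+siCTL, then 0.149, 0.126 and 0.155 in TLX+siCTL, and lastly 0.585, 0.623 and 0.736 in TLX+siTLX. The ratio in TLX+siTLX was far above the other 6 libraries. Decoy to death receptors was 0.107, 0.105 and 0.110 in CTL+siCTL, then 0.0862, 0.0853 and 0.0842 in TLX+siCTL, and lastly 0.0859, 0.0818 and 0.0953 in TLX+siTLX. Every library of the TLX line was below the control libraries, the log2 fold change with TLX being -0.60 for TNFRSF10D against -0.25 and -0.24 for TNFRSF10A and TNFRSF10B. CFLAR to CASP8 was 0.783, 0.737 and 0.765 in CTL+siCTL, then 0.818, 1.02 and 0.859 in TLX+siCTL, and lastly 0.653, 0.582 and 0.693 in TLX+siTLX. The groups did not overlap, with TLX+siCTL highest and TLX+siTLX lowest. Exon-union lengths multiply this ratio by the same factor in every library, so they cannot change that order. They moved the group means from 0.762, 0.898 and 0.643 to 1.23, 1.45 and 1.03. Which of the transcripts was more abundant thus depends on the length used. These ratios were not tested.

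**Figure D3:**
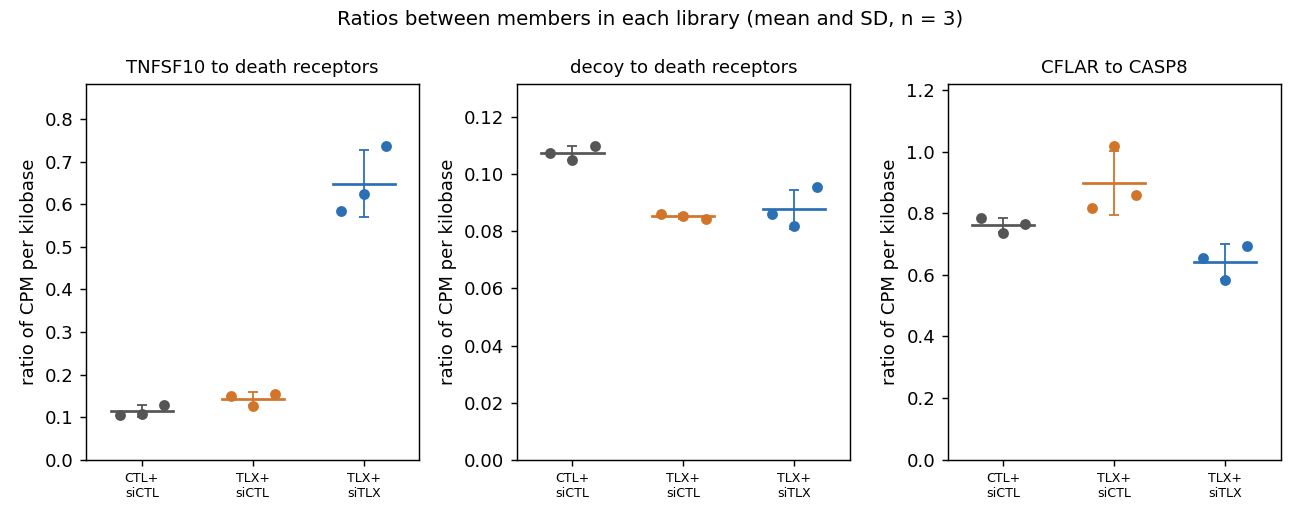
Ratios of CPM per kilobase of the longest coding transcript (vertical axes, starting at 0) by group, with 1 point per library and the mean and SD (n = 3). TNFSF10 to death receptors is 0.648 on average in TLX+siTLX against 0.114 and 0.143 in the other groups, and CFLAR to CASP8 is 0.762, 0.898 and 0.643 in the 3 groups.

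The 5 rows whose pattern was most like that of TNFSF10, by Pearson r over the 9 libraries among 11885 rows (mean of at least 1 log2 CPM, 1 row per symbol, TNFSF10 itself left out), were SERPINB9 (0.9988), NEDD9 (0.998), ECE1 (0.9949), UBE2T (0.9947) and CARMIL1 (0.9945). SERPINB9, the inhibitor of granzyme B, had 5.23, 5.31 and 5.38 log2 CPM in CTL+siCTL, then 5.42, 5.27 and 5.39 in TLX+siCTL, and lastly 6.30, 6.33 and 6.43 in TLX+siTLX. All 5 genes were higher in the 3 TLX+siTLX libraries than in the other 6. That follows from choosing them by likeness to TNFSF10 and is no evidence of a link.

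Of 36 other genes of the extrinsic pathway, 8 rose and 14 fell with TLX, 9 rose and 8 fell after the siRNA, and 9 rose and 9 fell over both, with medians of -0.17, 0.07 and -0.02. That is 22, 17 and 18 of 36 called, beside 30.1%, 23.7% and 34.6% of all rows and 56.6%, 45.8% and 63.6% of the expressed rows. Only 31 of the 36 had a mean of at least 0 log2 CPM. The list thus holds rows that are not expressed, these shares have unlike denominators, and no verdict on the list is drawn. With all-row medians set equal the first became 11 and 9 and the second 3 and 11, so the balance of directions in this list depends on the scaling. Among rows with a mean of at least 0 log2 CPM, the largest changes with TLX were rises of TNFRSF25 (0.78) and CYLD (0.69), a deubiquitinase, and falls of DEDD2 (-0.68) and MLKL (-0.80), the effector of necroptosis. After the siRNA TNFRSF21 (0.77), the death receptor DR6, and TNFRSF11B (0.76), a soluble receptor that also binds TRAIL, rose, while CASP6 (-0.58) and CYLD (-0.61) fell. The TNFRSF11B rise was lost without S2, S4, S5, S7, S8 or S9 (limma adjusted p up to 0.11). BID, the link from the receptors to mitochondria, rose after the siRNA (0.26, limma adjusted p = 0.0272), and CASP9, the mitochondrial initiator caspase, fell (-0.24, limma adjusted p = 0.0352). The call was lost for BID with all-row medians set equal, without the trend and without S3, S5, S6, S8 or S9, and for CASP9 without the trend and without S2, S4, S5, S6, S7 or S9, with limma adjusted p-values up to 0.252 and 0.111 over all settings. Both genes were picked for their role after their values were seen. Over both steps TNFRSF11B (1.07) and TNFRSF1B (0.74) rose and TRADD (-0.78) and DEDD2 (-0.98) fell.

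Of 24 other TNF receptors 5 rose and 6 fell with TLX, 8 rose and 0 fell after the siRNA by limma (1 was lower at an unadjusted p under 0.05), and 6 rose and 3 fell over both. The medians were -0.06, 0.23 and 0.15. This list shares TNFRSF1A, TNFRSF1B, TNFRSF6B, TNFRSF11B, TNFRSF21 and TNFRSF25 with the extrinsic list, and the ligand list below shares FASLG, TNF and LTA with it. The counts of these lists are therefore not separate. The 11, 8 and 9 calls of 24 stand beside 30.1%, 23.7% and 34.6% of all rows. Among the expressed rows the shares were 56.6%, 45.8% and 63.6%. At the siRNA step 12.7% of all rows rose and 10.9% fell (23.8% and 22.0% of the expressed rows). With quantile normalization the siRNA-step split was 7 and 1, and with all-row medians set equal it was 6 and 2. NGFR, the p75 neurotrophin receptor, rose at each step, by 2.39 and then 1.85, while TNFRSF9 (-0.79 and 1.21) and TNFRSF19 (-1.24 and 0.76) fell with TLX and rose after the siRNA. LTBR, the lymphotoxin receptor, had -0.58 over both steps (limma adjusted p = 5.61e-06). Of 17 other TNF ligands 2 rose and 2 fell with TLX, namely TNFSF15 (1.88), TNFSF12 (0.33), TNFSF9 (-0.93) and TNFSF13B (-1.52). After the siRNA 2 rose and 0 fell by limma (3 and 0 at an unadjusted p under 0.05), LTB (1.69) and TNFSF18 (0.98), both low on average at -1.18 and -1.33 log2 CPM. Over both, 4 rose (TNFSF15 1.66, LTB 1.89, TNFSF18 1.46, TNFSF12 0.33) and TNFSF9 fell (-1.02). The 4, 2 and 5 calls of 17 are below the 30.1%, 23.7% and 34.6% of all rows, and so not particular to the ligands. Single libraries decided some of these calls: TNFSF12 with TLX (without S1, S2, S4 or S5, limma adjusted p up to 0.0747) and over both (without S1, S2, S8 or S9, up to 0.0652), TNFSF13B (without S1, S2, S4 or S6, up to 0.0869) and TNFSF18 at the siRNA step (without S5, S6, S8 or S9, up to 0.0608). At the siRNA step the log2 fold change of 2.01 of TNFSF10 was above that of each of the 17 other ligands. Only 4 of those had a mean of at least 0 log2 CPM, and changes of low genes are understated. The 95% interval of LTB, from 1.02 to 2.36, includes the value of TNFSF10. Of 5 genes of death receptor glycosylation, 2 rose and 1 fell with TLX, 1 rose and 0 fell after the siRNA by limma (1 and 0 at an unadjusted p under 0.05), and 1 rose and 1 fell over both. These 3, 1 and 2 calls stand beside the same 30.1%, 23.7% and 34.6% of all rows, and 5 genes are too few to compare shares. GALNT3, an O-glycosylation enzyme, was the one that fell and then rose (-1.03 and 0.69), and GMDS rose by 0.53 with TLX.

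Of 25 known regulators of these genes 7 rose and 14 fell with TLX, 5 rose and 7 fell after the siRNA, and 6 rose and 15 fell over both, with medians of -0.22, -0.03 and -0.25. That is 21, 12 and 21 of 25 called, beside 56.6%, 45.8% and 63.6% of the expressed rows. With all-row medians set equal the siRNA-step split was 5 and 12. Of the interferon pathway genes named from this list, known as background to be able to raise TNFSF10, STAT2 (-0.27), IRF7 (-1.16), IRF9 (-0.98), JAK1 (-0.29), JAK2 (-1.28) and TYK2 (-0.27) fell with TLX and the receptor gene IFNAR1 rose (0.27). IRF1 had -0.15 (limma adjusted p = 0.0688, and 0.00712 without S9), and the receptor genes IFNAR2, IFNGR1 and IFNGR2 had 0.03, 0.02 and -0.04 (limma adjusted p = 0.886, 0.823 and 0.547). At the siRNA step, where TNFSF10 rose, the directions were mixed. TYK2 rose (0.38, limma adjusted p = 0.00543), while JAK1 (-0.21, 0.00582), IFNGR2 (-0.26, 0.0028) and IFNAR1 (-0.15, 0.0317) fell. The values of the rest there, none of them called, were 0.02 for STAT2 (limma adjusted p = 0.815), -0.05 for IRF1 (0.602), -0.11 for IRF7 (0.541), 0.04 for IRF9 (0.781), -0.16 for JAK2 (0.636), -0.01 for IFNAR2 (1) and 0.09 for IFNGR1 (0.272). IRF1 was called lower there with all-row medians set equal (limma adjusted p = 0.0344), and JAK2 without S7 (limma adjusted p = 0.0273). The call of TYK2 with TLX was lost with all-row medians set equal, without the trend and without S1, S2, S4 or S5 (limma adjusted p up to 0.189), and that of IFNAR1 at the siRNA step without the trend and without S1, S4, S5, S6, S8 or S9 (up to 0.115). DDIT3, the stress factor that can raise TNFRSF10B, fell at each step, by 1.34 and 1.26, and ATF3 did so too, by 0.79 and 0.70. TNFRSF10B fell at the same 2 steps, and the part of DDIT3 in that was not tested. TP73 (1.03 and 0.72) and DNMT1 (0.58 and 0.56) rose at both steps.

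**Figure D4:**
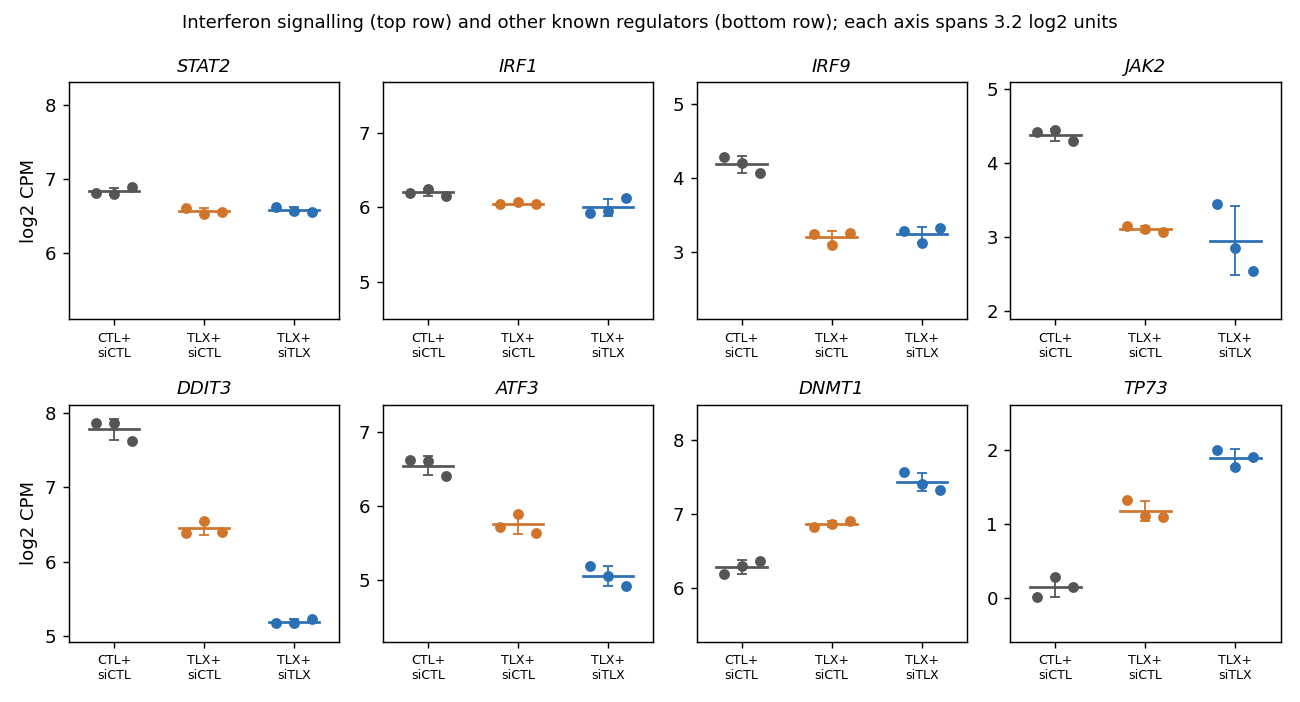
Level in log2 CPM (vertical axis) of 8 known regulators in the 3 groups, with 1 point per library and the mean and SD (n = 3). STAT2 and IRF9 are lower in both TLX groups and overlap between those, DDIT3 falls from 7.79 to 6.45 to 5.19, and TP73 rises from 0.15 to 1.17 to 1.89.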

How the data were processed

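RNA of 9 libraries was sequenced with a stranded mRNA kit, per the labels' protocols. The submitters' processing notes name the tools edgeR, limma and kallisto 0.44.0 and the build GRCh38, without saying what each was used for. The authors deposited log2 CPM values for 27548 rows, used as they stand. A second table deposited by the authors gives a signed fold change (a score here), a p-value and a q-value per comparison. Its columns were used only to compare calls.

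Column headers carry a group and a running number found in no sample's labels, so libraries were called S1 to S9, and 0 columns were left unmapped. Differences were tested with limma 3.58.1 (R 4.3.3) as two-sided contrasts of group means from a single model of the 9 libraries with an intensity trend, adjusted by Benjamini-Hochberg over all rows, at a threshold of 0.05. The scripts were tested on simulated data. The log2 values hold a prior count, read as 2 from their floor of -5.33, so changes of low genes are understated. Reads rebuilt from them are estimates: only 12.6% to 13.4% of the values above the floor lay within 0.01 of a whole read.

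The members and lists were chosen with earlier results of these data known. All members are named, and of each list the 2 largest called rises and falls per comparison among rows with a mean of at least 0 log2 CPM, plus genes needed for small counts. Some genes of the lists and marker sets are not reported here by name. The interferon pathway, CASP9 and BID values were added after values were seen. Gene positions are from GENCODE 29 and promoters from RefSeq. Alternatives were log2(CPM + 1), a filter on low rows, 3 other scalings, only the 2 groups compared, no trend, summed rows of a symbol, each library left out, and, chosen after seeing the data, exon-union lengths.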

Additional observations from a re-analysis of the deposited data

How the results depend on the processing

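Of the 17 called results of the 10 genes, 11 kept their call in all 17 alternative settings, 6 lost it in some and 0 changed sign. Of the 13 without a call, 4 gained one and 5 changed sign in some setting. With all-row medians set equal, which shifts the 3 comparisons by 0.12, -0.14 and -0.03, the log2 fold change of FAS with TLX was 0.016 and that of CASP8 0.11, and at the siRNA step TNFRSF10A was at -0.11, TNFRSF10C at -0.045 and FADD at -0.037. CASP8 with TLX was also 0.016 after quantile normalization and 0.0067 with expressed-row medians set equal, and ran from -0.076 without S4 to 0.074 without S5. At the siRNA step TNFRSF10A ran from -0.025 without S7 to 0.10 without S9, and TNFRSF10C was at -0.055 after quantile normalization and ran from -0.0059 without S6 to 0.22 without S5. None of these was called.

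Members called with TLX fell from 5 to 2 with all-row medians set equal, and at the siRNA step from 5 to 3 with only the 2 groups in the fit. At the siRNA step the extrinsic list went from 17 to 9 without the trend, the TNF ligands from 2 to 0 with only rows of at least 1 log2 CPM tested by limma (fewer genes tested) and to 1 after quantile normalization, and the glycosylation genes from 1 to 2 with all-row medians set equal. Over both steps the ligands went from 5 to 3 with that filter, and the glycosylation genes from 2 to 1 with only the 2 groups in the fit. Apart from the filter, the cause was not tested.

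Leaving out 1 library at a time gave 3 to 5, 3 to 5 and 6 to 8 called members, 2 to 5, 1 to 2 and 4 to 6 ligands, 17 to 24, 10 to 15 and 15 to 20 extrinsic genes, 9 to 11, 5 to 8 and 6 to 10 receptors, 18 to 22, 11 to 13 and 19 to 22 regulators, 2 to 3, 1 to 1 and 1 to 2 glycosylation genes, and 7033 to 8664, 5219 to 6241 and 8312 to 9209 rows in the 3 comparisons. No paired analysis was possible because the columns carry none of the replicate numbers of the labels, so the replicate block was not run. Few reads limit the precision of low genes such as TNFRSF10C, NR2E1, LTB, TNFSF13B and TNFSF18.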
